A study of Canis lupus familiaris with 6 samples.

Results

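De novo lipogenesis is the making of fatty acids from sugar-derived carbon. Its genes were followed here as a set of 10 named genes, each taken by its name from a table of 23299 genes, and all 10 names were found. The set holds the citrate carrier SLC25A1, the acetyl-CoA makers ACLY and ACSS2, the acetyl-CoA carboxylases ACACA and ACACB, fatty acid synthase (FASN), the NADPH-making malic enzyme ME1, the lipogenic protein THRSP and the transcription factors SREBF1 and MLXIPL. Messenger RNA was measured in canine adipose-derived stem cells, precursor cells from dog fat, after 14 days of adipogenic induction. The control group (n = 3 libraries) received DMSO, the solvent, and the other group (n = 3 libraries) received bisphenol A (BPA) at 1 µM, a plastic monomer that binds oestrogen receptors. Both groups were induced after 2 days of culture with 10 µg/mL insulin, 200 nM rosiglitazone, which activates the adipogenic receptor PPARG, and the glucocorticoid dexamethasone at 1 µM. Every control library thus also carries a PPARG agonist and insulin. The question was how BPA alters gene expression in dog cells that are turning into fat cells. The labels do not name the animals or cultures behind the replicates, so the tests measure only the spread between these libraries, which may be technical.

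In this pathway citrate leaves the mitochondrion through SLC25A1, and ACLY splits it in the cytosol into acetyl-CoA. The carboxylases turn acetyl-CoA into malonyl-CoA, and FASN joins these units into palmitate, using NADPH that ME1 and the pentose phosphate enzymes provide. SREBF1 encodes SREBP-1, a membrane-bound factor that SCAP escorts to the Golgi, where it is cut to release the part that turns on lipogenic genes, while INSIG proteins hold it back. MLXIPL encodes ChREBP, which responds to sugar metabolites. Insulin raises SREBP-1c in fat and liver. The table holds 1 value per gene, so SREBP-1a and SREBP-1c transcripts were not separated, and protein cleavage and enzyme activity were not measured.

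Values are in TPM, a gene's length-corrected share of the transcripts of its library, scaled to 1000000, so levels of different genes can be set side by side. Being a share, a TPM also moves with the abundance of all other genes. The read depth behind a TPM is unknown, so no counting interval can be given. A gene was tested where its log2(TPM + 1) averaged 1 or more over the libraries. This left 12277 genes, among them 8 of the 10 named ones. THRSP and MLXIPL lay under this limit. A change is BPA minus control in log2(TPM + 1), and for genes of low abundance this scale understates it. Adjusted p-values are from limma, a linear model fitted across all tested genes, with adjustment by Benjamini-Hochberg, and 0.05 was the threshold for a call.

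Of the 8 tested lipogenic genes, 0 were called higher and 0 lower. Over all tested genes the share called was 0% in each direction, the smallest adjusted p by limma was 0.901, and 230 genes higher (1.87%) and 209 genes lower (1.70%) had an unadjusted p under 0.05. ACACA was the 1 lipogenic gene in that last class. It was also the 1 gene of the 8 with every BPA library above every control library, a separation seen in 5.38% of all tested genes, while 0 of the 8 had every BPA library below, against 3.98% of all tested genes. Of the 8 tested genes, 7 had a positive change, as did 56.6% of all tested genes. The median change of the 8 was 0.35, beside a median of 0.03 over all tested genes. That median rests in large part on 1 library: without BPA replicate 3 it was 0.07, and without BPA replicate 1 it was 0.57.

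The libraries did not spread evenly. Along the first principal component, which held 79.8% of their variance, they ranged widely, with BPA replicate 3 at 61.1 and control replicate 2 at 11.3. BPA replicate 2 was at -0.10, control replicate 3 at -14.4, control replicate 1 at -28.1 and BPA replicate 1 at -29.9. BPA replicate 3 was the highest library for 38.9% of all tested genes and the lowest for 42.4%. The change of each tested lipogenic gene is given below with and without it. Among the 8 lipogenic genes it was the highest library for 7, and control replicate 1 was the lowest for 7, as it was for 19.07% of all tested genes. No sequencing or culture batch is named in the labels.

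**Figure D1:**
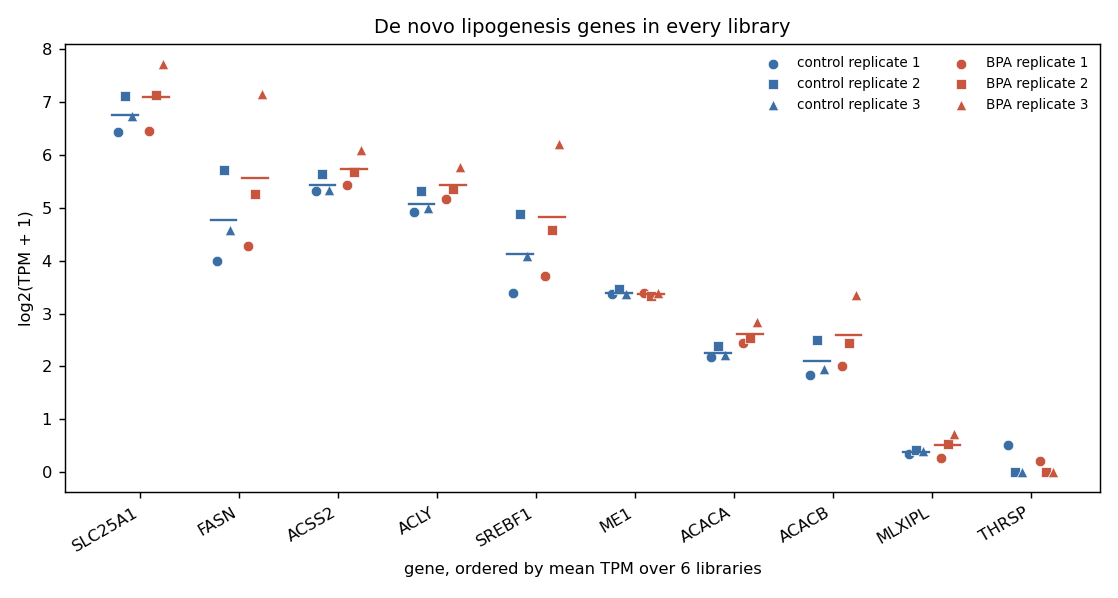
Level of each of the 10 genes on the log2(TPM + 1) axis in the 3 control (blue) and 3 BPA (red) libraries, with symbols for the replicate and bars for group means (none for THRSP, which is listed at 0 in 4 libraries). SLC25A1 is the highest gene in every library, and FASN and SREBF1 show the widest spread, with BPA replicate 3 far above the other libraries.

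SLC25A1, the mitochondrial citrate carrier, was the most abundant of the 10 genes in all 6 libraries. It stood at 85.6, 137 and 106 TPM in control replicates 1, 2 and 3 and at 87.1, 139 and 210 TPM in BPA replicates 1, 2 and 3. The groups overlapped, since BPA replicate 1 lay below 2 of the control libraries. The change was 0.34 (SE 0.35, adjusted p by limma 0.901), with a 95% interval from -0.52 to 1.195. Without BPA replicate 3 the change was 0.03.

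The acetyl-CoA makers were next in abundance in most libraries and moved closely together. ACSS2, which makes acetyl-CoA from acetate, stood at 39.2, 49.1 and 39.3 TPM in control replicates 1, 2 and 3 and at 42.01, 50.03 and 67.5 TPM in the BPA replicates. ACLY, which makes it from citrate, stood at 29.2, 39.0 and 30.9 TPM in control and at 34.9, 39.9 and 53.5 TPM with BPA. Both genes ranked the libraries in the same order, and in each the control replicate 2 library lay above BPA replicate 1, so the groups overlapped. The ratio of ACSS2 to ACLY kept between 1.203 and 1.345 over the 6 libraries. The change of ACLY was 0.35 (SE 0.19, 95% interval -0.12 to 0.83), and that of ACSS2 was 0.30 (SE 0.20, 95% interval -0.19 to 0.78). Without BPA replicate 3 they were 0.19 and 0.11.

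ACACA, the cytosolic acetyl-CoA carboxylase whose malonyl-CoA feeds FASN, was the lipogenic gene whose groups stood apart. It stood at 3.54, 4.21 and 3.62 TPM in control replicates 1, 2 and 3 and at 4.46, 4.84 and 6.13 TPM in BPA replicates 1, 2 and 3. The lowest BPA library exceeded the highest control library, although the step between them was small. The mean was 5.14 ± 0.88 TPM (SD, n = 3) with BPA and 3.79 ± 0.36 TPM (SD, n = 3) in control. The change was 0.35 (SE 0.13, 95% interval 0.02 to 0.68), but it did not pass over all genes (adjusted p by limma 0.901). The interval's distance from 0 depended on the settings: the unadjusted p by limma was under 0.05 in 11 of 20 alternatives. Both fits with unequal library weights were among these 11. The unadjusted p by limma was 0.122 without control replicate 1, 0.116 without control replicate 3 and 0.059 without BPA replicate 3. It was 0.073 with the replicate number as a block, 0.057 under median centring and 0.052 under median-ratio scaling. The change of ACACA was 0.24 without BPA replicate 3, and it lay between 0.24 and 0.43 when any 1 library was left out.

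ACACB, the carboxylase at the mitochondrial surface whose malonyl-CoA restrains fatty acid oxidation, had a level like that of ACACA but a wider spread. It stood at 2.59, 4.66 and 2.85 TPM in control replicates 1, 2 and 3 and at 3.002, 4.46 and 9.21 TPM in the BPA replicates. BPA replicates 1 and 2 both fell inside the control range, and only BPA replicate 3 lay above it. The change was 0.50 (SE 0.38, 95% interval -0.43 to 1.43), and 0.13 without BPA replicate 3. The ratio of ACACB to ACACA was 0.73, 1.11 and 0.79 in control and 0.67, 0.92 and 1.502 with BPA, so which carboxylase was more abundant differed between libraries of the same group. Whether reads shared by these related genes were split or dropped is not given in the sources used here.

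FASN had the widest spread of the set. It stood at 14.9, 51.6 and 23.0 TPM in control replicates 1, 2 and 3 and at 18.4, 37.5 and 142 TPM in BPA replicates 1, 2 and 3. BPA replicates 1 and 2 lay within the control range, and BPA replicate 3 was 5.08 times the mean of the other BPA libraries. Control replicate 2 was in turn 2.72 times the mean of the other control libraries. Group means were 66.1 ± 66.6 TPM with BPA and 29.8 ± 19.3 TPM in control (SD, n = 3 each), and the change was 0.81 (SE 0.82) with a 95% interval from -1.21 to 2.82. Without BPA replicate 3 it was 0.01. That interval covers lower as well as higher levels.

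SREBF1, the more abundant of the transcription factor genes in the set, followed the same library order as FASN. It stood at 9.52, 28.7 and 15.97 TPM in control replicates 1, 2 and 3 and at 12.1, 22.9 and 73.1 TPM in BPA replicates 1, 2 and 3. The groups overlapped, with BPA replicate 1 below 2 control libraries and BPA replicate 3 above all of them. The change was 0.71 (SE 0.71, 95% interval -1.03 to 2.45), and 0.02 without BPA replicate 3. From the lowest to the highest library SREBF1 spanned 7.68-fold and FASN 9.52-fold, while the ratio of FASN to SREBF1 spanned only 1.35-fold: 1.57, 1.8 and 1.44 in control and 1.52, 1.64 and 1.95 with BPA. This library order was shared by 831 tested genes in all (6.77%).

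ME1, which makes cytosolic NADPH from malate, was the steady member. It stood at 9.31, 10.0 and 9.33 TPM in control and at 9.53, 9.03 and 9.51 TPM with BPA. The highest library was 1.11 times the lowest, and 98.2% of all tested genes had a larger standard deviation over the 6 libraries. By the same measure 0.399% of tested genes spread more widely than FASN and 1.06% more widely than SREBF1. The change of ME1 was -0.03 (SE 0.09), with a 95% interval from -0.24 to 0.18. The changes estimated for the other tested lipogenic genes lay above that interval. Their own intervals, except that of ACACA, nevertheless contained -0.03. Without BPA replicate 3 the change of ME1 was -0.037, and those of FASN, SREBF1 and SLC25A1 were 0.01, 0.02 and 0.03.

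THRSP and MLXIPL were barely present and were not tested. THRSP, a nuclear and cytosolic protein of lipogenic tissues, was listed at 0.418 TPM in control replicate 1 and 0.154 TPM in BPA replicate 1 and at 0 in the other 4 libraries. MLXIPL stood at 0.276, 0.335 and 0.314 TPM in control and at 0.203, 0.440 and 0.647 TPM with BPA, so BPA libraries lay on both sides of the control range. With no filter on low values the change of MLXIPL was 0.12 (SE 0.12, adjusted p by limma 0.911).

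Some neighbours in the order of levels changed places between libraries. SLC25A1, with a range of 85.6 to 210 TPM, did not reach down to ACSS2, which ended at 67.5 TPM. The ranges of ACSS2, ACLY, FASN and SREBF1 over the libraries overlapped with each other. Within every library, though, ACSS2 lay above ACLY (ratio 1.203 to 1.345) and FASN above SREBF1 (ratio 1.44 to 1.95). FASN was the fourth in 4 libraries but the second in control replicate 2 and BPA replicate 3. ME1 was the sixth in every library, ahead of the carboxylases, which exchanged places. The 10 genes together made up 195, 325 and 232 TPM in control and 212, 308 and 571 TPM with BPA. FASN took from 7.68% of that sum in control replicate 1 to 24.9% in BPA replicate 3.

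**Figure D2:**
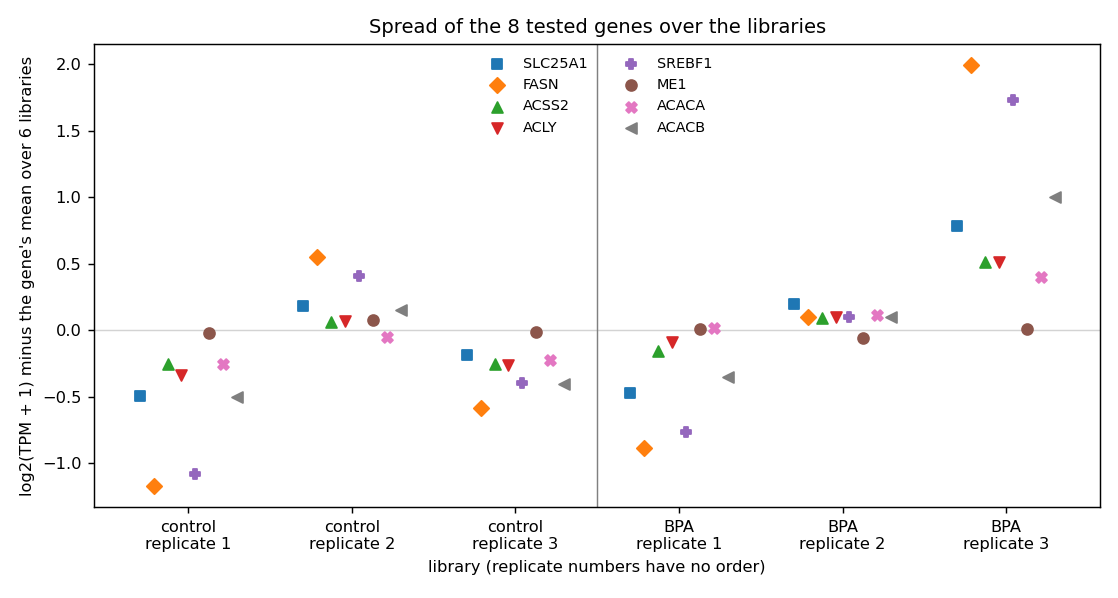
Each of the 8 tested genes in each library, as log2(TPM + 1) minus the gene's own mean over the 6 libraries. FASN and SREBF1 lie lowest in control replicate 1 and highest in BPA replicate 3, ME1 stays near 0, and ACACA is the gene whose 3 BPA points all lie above its 3 control points.

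The principal component was also entered as a covariate. It was computed from the same tested genes, the lipogenic ones included, so it is not an independent measure. The change of FASN was then 0.11 (SE 0.12) and that of SREBF1 0.11 (SE 0.11). ACACA kept 0.26 (SE 0.05), ACLY 0.20 (SE 0.06), ACACB 0.19 (SE 0.07) and ACSS2 0.14 (SE 0.05), each at an unadjusted p under 0.05 and none past the threshold. Over all genes, 1945 of 12277 had an unadjusted p under 0.05 in that fit, against 439 without the covariate. The adjusted p by limma was 0.126 for ACACA in that fit, in a range over alternatives with equal library weights from 0.126 to 0.9999. SLC25A1 was at 0.05 (SE 0.09) and ME1 at -0.04 (SE 0.05). Leaving out BPA replicate 3 and control replicate 2 together gave 0.49 for FASN, 0.41 for SREBF1, 0.30 for ACACA and 0.31 for ACLY.

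**Figure D3:**
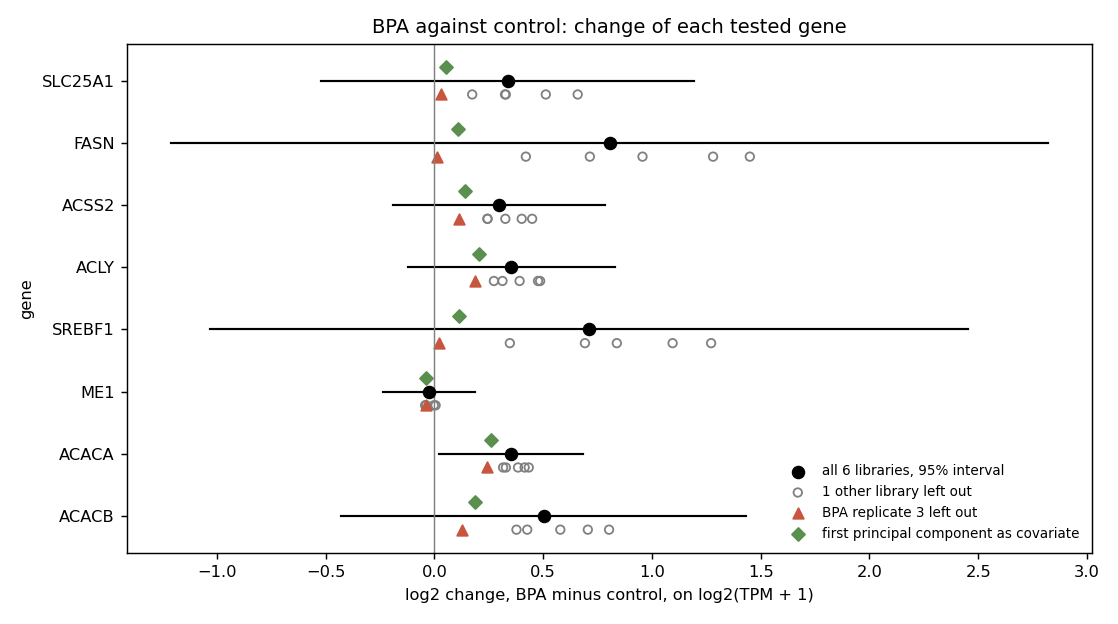
Change of each tested gene (BPA minus control, log2(TPM + 1) scale) with its 95% interval from limma in black, and below it the change with 1 library left out (circles, or a red triangle for BPA replicate 3); green diamonds show the fit with the first principal component. The interval of ACACA, from 0.02 to 0.68, is the 1 that does not include 0 (unadjusted p by limma 0.059 without BPA replicate 3), and without BPA replicate 3 FASN and SREBF1 drop to 0.01 and 0.02.

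Genes closest to FASN and SREBF1 were sought by the root mean square difference of mean-centred log2(TPM + 1) profiles over the 6 libraries. For FASN these were CIC at 0.047, AHNAK2 at 0.073, PTPN23 at 0.079, ATN1 at 0.084 and SELENON at 0.091. For SREBF1 they were EMILIN1 at 0.028, MXRA8 at 0.046, SCRIB at 0.050, SIDT2 at 0.059 and COL6A1 at 0.061. The distance between FASN and SREBF1 was 0.156, and SREBF1 ranked 39 among the 9996 genes ordered by nearness to FASN, while FASN ranked 132 among those ordered by nearness to SREBF1. The other lipogenic genes were farther off, from 0.564 for ACACB to 1.05 for ME1.

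SREBP processing genes and partners held 2 genes, of 12 tested, whose BPA libraries all lay above control, a separation seen in 5.38% of all tested genes. INSIG1, which retains the SREBP-SCAP complex and is itself an SREBP target, stood at 290, 358 and 285 TPM in control and at 365, 447 and 466 TPM with BPA. Its groups did not overlap, with a change of 0.45 (SE 0.14, adjusted p by limma 0.901). SP1, a promoter partner of SREBPs, averaged 22.5 ± 1.34 against 19.7 ± 1.27 TPM (SD, n = 3 each), also without overlap. SCAP, the escort protein, overlapped at 1.37, 3.56 and 2.10 TPM in control and 1.28, 2.69 and 9.29 TPM with BPA, and so did SREBF2, the cholesterol-directed relative of SREBF1, at 4.64, 10.98 and 6.65 and 4.88, 7.87 and 22.9 TPM. INSIG2 had a change of -0.14 (SE 0.21). Of the 12 tested genes 0 were called, 9 lay above control and the median change was 0.07, which was 0.05 without BPA replicate 3 and became -0.01 under median centring of the libraries.

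The regulators beside SREBF1 were mixed. Among liver X receptors, which induce SREBF1, and their targets, 7 of 8 tested genes lay above control (median 0.20, 0 called). NR1H3 had a change of -0.19 (SE 0.11) and NR1H2 of 0.37 (SE 0.29). Without BPA replicate 3 the list's median was -0.03, with 2 of 8 above. Among partners and targets of ChREBP, 5 of 6 lay above (median 0.23, 0 called). For 3 of the 6 every BPA library lay above control, a separation seen in 5.38% of all tested genes. TXNIP, a sugar-responsive target, stood at 2213, 2263 and 2158 TPM in control and at 2652, 2684 and 2561 TPM with BPA (change 0.25, SE 0.08). GPD1, which makes glycerol 3-phosphate, averaged 1.79 ± 0.83 against 0.81 ± 0.33 TPM. The ChREBP partner MLX had a change of -0.13 (SE 0.10), and MLXIP, a relative of MLXIPL, of 0.53 (SE 0.59). The median of this list was 0.22 without BPA replicate 3, where that of the 8 lipogenic genes was 0.07. For the ChREBP list it was 0.15 under median centring, 0.17 with a pseudocount of 5 and 0.195 without BPA replicate 2.

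Supply of acetyl-CoA, citrate and NADPH showed 14 of 17 tested genes above control (median 0.11, 0 called). Under median centring the median was 0.029 with 9 of 17 above, and under quantile normalization 0.050 with 11 of 17 above. Without BPA replicate 1 it was 0.183 with 10 of 17 above. IDH1, a cytosolic source of NADPH, stood at 42.4, 41.7 and 40.2 TPM in control and at 59.5, 57.1 and 43.6 TPM with BPA, and here BPA replicate 3 was the nearest to control. Its change was 0.34 (SE 0.14, adjusted p by limma 0.901).

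Regulators of the carboxylases and ACLY had 11 of 15 tested genes above control (median 0.15) and 0 called, and 8 of 15 (median 0.02) without BPA replicate 3. MID1IP1, the relative and partner of THRSP that promotes carboxylase polymers, was far more abundant than THRSP. It stood at 85.2, 110 and 90.5 TPM in control and 78.2, 112 and 156 TPM with BPA, with overlap. PRKAG2, a regulatory subunit of the AMP-activated kinase that inhibits the carboxylases, averaged 1.37 ± 0.23 against 1.802 ± 0.134 TPM, with every BPA library below control. Such a separation was seen in 3.98% of all tested genes. The other tested subunits of that kinase, PRKAA1, PRKAB1, PRKAB2 and PRKAG1, were more abundant. Their groups overlapped, with changes from -0.07 to 0.04. GSK3B had a change of 0.16 (SE 0.16).

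Genes that use the palmitate onward had 8 of 12 tested members above control (median 0.09, 0 called), and 6 of 12 (median 0.01) without BPA replicate 3. Under median centring the median was 0.0017. SCD, which desaturates the products, had no overlap, at 256, 339 and 249 TPM in control and 435, 498 and 515 TPM with BPA (change 0.79, SE 0.15, adjusted p by limma 0.901). The ratio of SCD to FASN was 17.1, 6.56 and 10.8 in control replicates 1, 2 and 3. In BPA replicates 1, 2 and 3 it was 23.6, 13.3 and 3.62, so it varied widely within both groups. HACD1, an elongation dehydratase, lay below control without overlap (1.93 ± 0.12 against 2.58 ± 0.22 TPM). Of the 12 tested genes, 2 had every BPA library above control, against 5.38% of all tested genes. Every BPA library was below control for 2 of the 12, against 3.98% of all tested genes. ELOVL6, the elongase of palmitate, stayed under the limit for testing at 0.936 to 1.11 TPM.

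**Figure D4:**
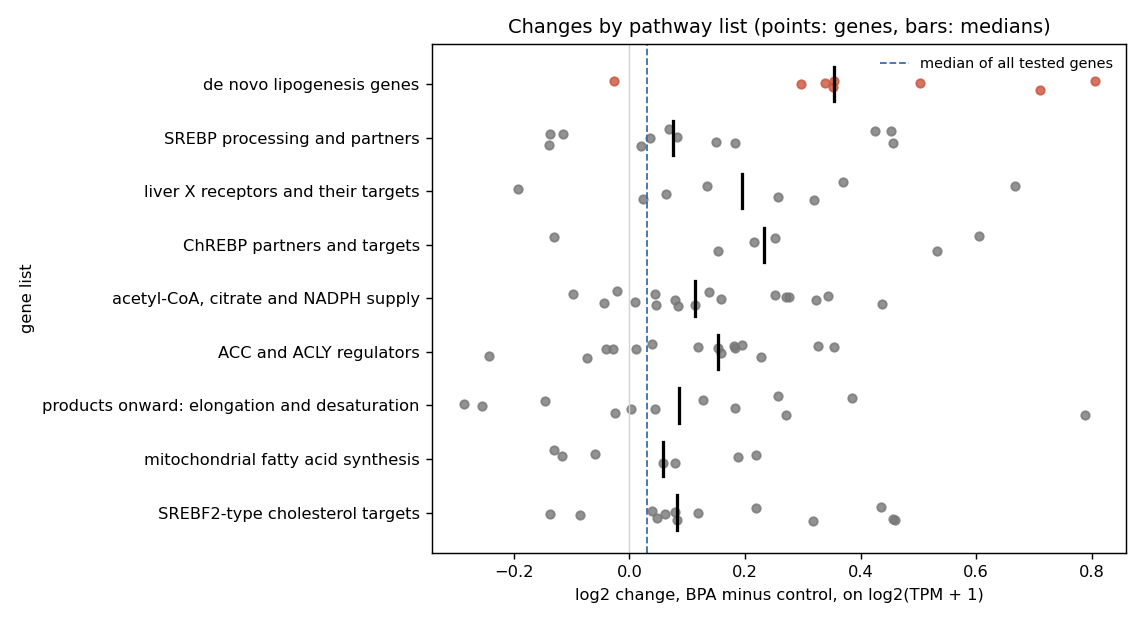
Change (BPA minus control, log2(TPM + 1) scale) of every tested gene in the lipogenic set (red) and in 8 lists of related genes (grey), with black bars at list medians and a dashed line at the median of all tested genes, 0.03. The lipogenic set has its median at 0.35 and the lists have theirs from 0.06 to 0.23; 0 genes shown were called.

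Markers of cell types were read beside these values. Of 13 tested adipocyte markers, 12 lay above control and 0 were called. For 6 of them every BPA library was above control, a separation seen in 5.38% of all tested genes, and for 1 of them, LEP, every BPA library was below (3.98%). LEP, the adipocyte hormone leptin, stood at 163, 156.6 and 167.1 TPM in control and at 145.2, 143.1 and 125.1 TPM with BPA (change -0.24, SE 0.09, adjusted p by limma 0.901). The summed level of the adipocyte markers was 723 to 922 TPM in control and 994 to 1170 TPM with BPA. That sum leans on abundant genes whose groups overlapped. LPL stood at 451, 493 and 396 TPM in control and 561, 576 and 408 TPM with BPA. PNPLA2 stood at 74.8, 189 and 107 TPM in control and 106, 198 and 506 TPM with BPA. PPARG, the target of rosiglitazone, stood only between 0.099 and 0.357 TPM. ADIPOQ, a defining adipocyte product, stood at 9.47, 14.7 and 7.99 TPM in control and 32.3, 40.4 and 26.2 TPM with BPA, so unlike FASN it was lowest in BPA replicate 3 within its group. FABP4, an adipocyte fatty acid carrier, was also lowest there within its group, with 124, 117 and 48.7 TPM in BPA replicates 1, 2 and 3, while PLIN1 was highest in BPA replicate 3, at 8.03 TPM. The part of adipocyte content in the lipogenic values was not tested, and in bulk RNA a different number of adipocytes and a different amount of RNA per adipocyte cannot be told apart. Stromal progenitor markers summed to 185 to 209 TPM in control and 220 to 270 TPM with BPA. Of the 5 tested, 4 lay above control (median change 0.14, 0 called). Only PDGFRA had every BPA library above control, with a mean of 106 TPM against 74.7 TPM, and the other tested markers overlapped. Endothelial markers summed to at most 0.806 TPM, epithelial to 0.374, chondrocyte to 0.757 and hepatocyte to 0.963 TPM, with ALB at most 0.023 and PECAM1 at most 0.008 TPM. Leukocyte markers summed to 28.5 to 52.1 TPM, although PTPRC, which defines leukocytes, was at most 0.007 TPM. Osteoblast markers summed to 6.18 to 13.9 TPM, skeletal muscle to 1.21 to 1.99 TPM and glial and neural to 2.49 to 5.23 TPM. Smooth muscle and myofibroblast markers were abundant, at 11269 to 12436 TPM in control and 9810 to 11710 TPM with BPA. Of the 4 tested, 4 lay below control (median change -0.20, 0 called). For 2 of them every BPA library was below control, against 3.98% of all tested genes.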

How the data were processed

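For the 6 libraries the authors deposited log2 values, named as normalized log TPM, in 1 table. Since 2 to the power of each value, minus 1, summed to 1000000 in each column, the unit was taken to be log2(TPM + 1), a pseudocount of 1. Per the labels' protocols, poly(A) libraries were made with a stranded kit. For aligner, counter, genome build and annotation, the sources used here name none. All 10 symbols matched RefSeq names of the assembly UU_Cfam_GSD_1.0, and no coordinates were used.

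Groups and replicate numbers came from the sample titles. BPA was compared with control over all 12277 genes with a mean log2 value of at least 1 by limma 3.58.1 in R 4.3.3 (empirical Bayes with a trend, two-sided, no covariate, all 6 libraries). Intervals use limma's moderated variance. On simulated data for BPA against control over these 12277 genes with 200 changed, the recovered share was 50% for a true log2 change of 1, 84% for 2, 94% for 3 and 94% for 4, and 11 unchanged genes were called. The simulated noise was independent between genes, whereas the first principal component held 79.8% of the variance of the real libraries. These shares may therefore not hold for the real comparison.

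The members and lists were chosen with earlier results of these data known, so no list was tested. Every member is named; of each related list, the 2 genes of smallest p and partners fixed by role; and the 5 symbols nearest in profile to FASN and SREBF1. Of the genes this rule names, 2 are not reported here. Alternatives covered filters, pseudocounts, scalings, model settings, a replicate block and leaving out libraries. Array weights gene by gene were added after seeing the data.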

Additional observations from a re-analysis of the deposited data

How the results depend on the processing

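Of the lipogenic genes, 0 were called under every alternative with equal library weights, including a threshold of 0.1, and 7 genes had a positive change wherever they were tested. The change of ME1 ran from -0.043 to 0.0054 when 1 library was left out, the positive value without control replicate 2. The median change of the set ran from 0.07 to 0.57 on leaving out 1 library, lowest without BPA replicate 3. Without BPA replicate 3 and control replicate 2 together that median was 0.30. Limma's default array weights called 3037 genes higher and 1592 lower, with 5 of the set higher (ACACA, ACLY, ACSS2, ACACB and SLC25A1). Their estimation stopped before converging and gave BPA replicate 2 a weight of 6490 against at most 1.24 elsewhere. Gene-by-gene weights, chosen after seeing the data, called 537 higher and 344 lower, with 1 of the set higher, ACACA (adjusted p by limma 0.0311); BPA replicate 3 weighed 0.115.

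Over all genes, no filter gave 3 higher and 3 lower (MC1R higher, CCL4 lower and 4 locus numbers). Lower calls were from 0 to 1 when 1 library was left out, the 1 being MIR29C-1 without BPA replicate 3. They were 2 without BPA replicate 3 and control replicate 2 (MIR29C-1 and LOC119875712), and 4 with the principal component (CA9, CXCL8, POSTN and DKK1). These genes were named after their values were seen. With the replicate number as a block 0 genes were called. The deviations of same-numbered libraries had r = 0.718, -0.44 and -0.232 across genes. Since r was above 0.1 for 1 of the 3 pairs, the numbers were not taken as pairs; not every library correlated best with its own. The block moved the genes at an unadjusted p under 0.05 from 439 to 264. The planned search of promoter motifs was not run, as no sequences were used here. TPM keeps no depth, so no counting error can be given, also for the low values of THRSP and MLXIPL.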

Other observations

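Fatty acid synthesis also runs inside mitochondria, on separate enzymes that supply lipoic acid. Of 7 tested genes of that route, 4 lay above control and 0 were called, with a median change of 0.06 that became -0.03 under median centring and -0.01 under quantile normalization. ACSF3, which activates malonate there, averaged 1.60 ± 0.44 TPM against 1.21 ± 0.10 TPM in control (SD, n = 3 each). MECR, the last reductase of the cycle, averaged 13.4 ± 2.32 and 14.6 ± 0.27 TPM.

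Cholesterol synthesis and uptake genes, which SREBF2 controls in the main, had 11 of 13 tested members above control and 0 called. Their median change was 0.08, and -0.002 under median centring. Without BPA replicate 3 it was 0.012, with 7 of 13 above control. HMGCS1, which makes HMG-CoA, stood at 134, 143 and 126 TPM in control replicates 1, 2 and 3 and at 178, 178 and 149 TPM in BPA replicates 1, 2 and 3. Its groups did not overlap, and BPA replicate 3 was the BPA library nearest to control. FDFT1, the squalene synthase, averaged 13.8 ± 0.18 against 12.7 ± 0.36 TPM, also without overlap. These were the 2 of the 13 tested genes with every BPA library above control, a separation seen in 5.38% of all tested genes.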
